A study of Mus musculus with 58 samples.

Results

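The libraries described here compared mouse embryonic stem (mES) cells depleted of the histone methyltransferase subunit DPY30 with control cells on day 2 of retinoic acid (RA) treatment. They were 4 of the 58 libraries of the series, chosen by their labels, with 2 libraries of auxin-treated cells (Auxin) and 2 of solvent-treated cells (DMSO). Both groups came from the E14 mES line, which is of 129/Ola origin, with a mini auxin-inducible degron joined to the end of DPY30 at both alleles (DPY30–mAID) and with OsTIR1, the plant F-box protein that lets auxin send a degron-tagged protein to the proteasome, integrated by piggyBac. Both were held in 1 µM all-trans RA without LIF, the cytokine that keeps mES cells from differentiating. DMSO cells carried the same tag and OsTIR1 and received no auxin. OsTIR1 was put into homozygous clones of the tagged cells, and how many clones the libraries came from is not given in the sources used here. Cells without the degron given auxin were not analysed here, so an effect of auxin itself cannot be told apart from that of DPY30 loss. When auxin was added relative to RA is not given in the sources used here. Unlabelled RNA was sequenced from its 3′ ends (Quant-seq), and other libraries of the same course, DMSO at 0 h and both groups at 8 h, day 1 and day 4, served to set the day 2 values in time. The study used this course to ask whether trimethylation of histone H3 at lysine 4 (H3K4me3) is needed to switch on genes in response to RA.

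DPY30 is a core subunit shared by the SET1 and MLL complexes, which add methyl groups to H3K4 at promoters and enhancers. RA is a vitamin A derivative that enters the nucleus with the help of binding proteins and binds RAR–RXR receptor pairs, which sit on paired repeats in DNA. In ES cells without LIF it switches on enzymes of its own metabolism and the Hox genes, transcription factors that lie in clusters and specify position along the body axis, while the pluripotency network is shut down and early neural and extraembryonic endoderm genes appear.

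Between 1673112 and 2144900 reads were counted per day 2 library, within the range of 1264241 to 2543632 over all Quant-seq libraries. A read was counted for 14150 and 14009 genes in the Auxin libraries and for 13435 and 13491 in the deeper DMSO libraries. Multimapped reads, those with more than 1 place in the genome, made up 30.0% to 30.6% of counted reads in the 4 libraries. Values are given as CPM, the reads of a gene scaled to the normalised total of its library, which allow the same gene to be compared between libraries and not different genes with each other. The labels do not say whether the 2 replicates of a group were separate cultures. The p-values rest on the spread within all RA groups of the course, day 6 included, fitted together, and this spread may be technical. The 2 Auxin libraries of day 6 differed most (Spearman correlation of counts 0.9175, where every other pair had 0.9735 or more).

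The targeted gene itself was not lower in Auxin. Dpy30 RNA was at 48.2 and 51.7 CPM in Auxin and at 44.1 and 48.1 CPM in DMSO (log2 fold change 0.11, SE 0.17, adjusted p = 0.733). The degron acts on the protein and leaves the RNA, so this value is no check of the labels. Among 18 genes of the H3K4 methyltransferase complexes tested, only Cxxc1, which encodes the CpG-binding subunit of the SET1 complexes, was called (5.56% higher, where 2.93% of all tested genes were). It rose from a mean of 41.8 to 84.3 CPM (log2 fold change 1.01). At an adjusted p below 0.05 with a smaller change 2 more of these genes were higher and 2 lower. The call of Cxxc1 lies at the threshold and was lost without Auxin replicate 1 (0.99) or DMSO replicate 1 (0.87). It was also lost without a filter on low counts (0.981), without multimapped reads (0.987) and without the day 6 groups (0.993). Of the 5 H3K4 demethylases tested 0 were called by edgeR, by DESeq2 or at an unadjusted p below 0.05.

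On day 2, 334 genes were higher in Auxin and 215 were lower, out of 11415 genes tested (2.93% and 1.88%). A gene was called when its Benjamini-Hochberg adjusted p in edgeR's quasi-likelihood test was below 0.05 and its log2 fold change was above 1 or below −1. At an adjusted p below 0.05 and any size, 680 genes were higher (5.96%) and 843 lower (7.39%). The median log2 fold change of all tested genes was 0.04. Genes that were higher had fewer reads, with a median of 29.5 reads in Auxin, than genes that were lower, with a median of 67 reads in DMSO. A mean of at least 50 reads in the higher group was reached by 87 of the higher and 133 of the lower genes, and the count of higher genes was 117 under DESeq2. Leaving out Auxin replicate 1, Auxin replicate 2 or DMSO replicate 2 lowered it to 175, 209 and 190. The 2 groups did not overlap for any of the 549 called genes, and for 57.2% of all genes tested. In bulk RNA, fewer cells of a type and less RNA per cell cannot be told apart.

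**Figure D1:**
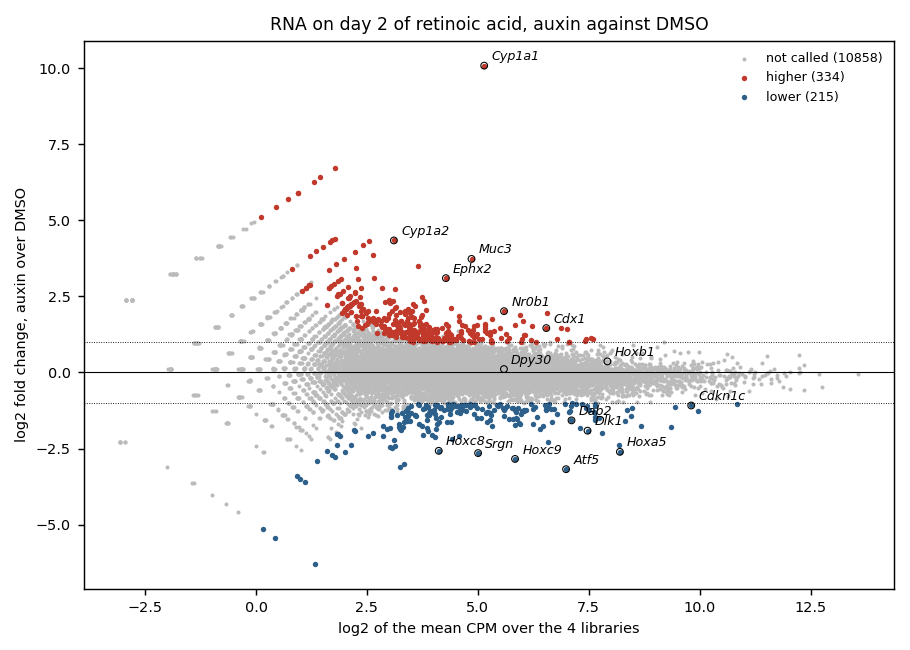
Each point is a gene on day 2 of RA, with its mean level over the 4 libraries (log2 CPM) on the x axis and its log2 fold change, Auxin minus DMSO, on the y axis; the 8 tested genes without a day 2 read are left out. The 334 higher and 215 lower genes are coloured, and Cyp1a1 and Muc3 are labelled among those above 0, and Atf5, Hoxc9 and Hoxa5 among those below.

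Among genes that carry, sense and remove RA, several known targets were not called different. Of 23 genes of the retinoid pathway tested, 2 were higher (8.70%, where 2.93% of all tested genes were) and 0 lower in edgeR's test. At an unadjusted p below 0.05 with the same fold 3 were higher and 0 lower, and under DESeq2 1 and 0. Rarb, an RA receptor and a direct RA target, was at 26.7 and 36.8 CPM in Auxin and at 31.2 and 23.1 CPM in DMSO, and the groups overlapped (log2 fold change 0.23, SE 0.25). Cyp26a1, which breaks RA down and is another direct target, was at 128 and 113 CPM in Auxin and at 90.9 and 106 CPM in DMSO (0.29, SE 0.22). Stra8, a gene named for its stimulation by RA, was at 786 and 771 CPM in Auxin and at 847 and 882 CPM in DMSO (−0.15, SE 0.10). These 3 genes did not pass the test (adjusted p = 0.611, 0.415 and 0.352).

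At an adjusted p below 0.05 with a change smaller than 1 on the log2 scale, 2 more genes of this pathway were higher and 4 lower, and its summed level was 1991 and 1904 CPM in Auxin and 2142 and 2180 CPM in DMSO. Crabp2, which delivers RA to its receptors, was at 170 and 154 CPM in Auxin and at 287 and 280 CPM in DMSO (log2 fold change −0.81, adjusted p = 0.00137). Stra6, the membrane receptor for retinol-binding protein, was at 48.7 and 47.7 CPM against 30.1 and 23.6 CPM (0.85, adjusted p = 0.00999). Auxin and DMSO did not overlap for these genes, but each change was smaller than 1 on the log2 scale. Of the 2 genes called higher, Aldh1a3, an enzyme that makes RA, was at 67.6 and 71.8 CPM in Auxin and at 31.7 and 26.9 CPM in DMSO (1.25, adjusted p = 0.0002), but all of its reads were multimapped. Rxrg, an RXR receptor, had 20 reads in Auxin and 1 in DMSO, a ratio of 21.9 (95% interval 3.51 to 910, counting error only), and its call was lost without DMSO replicate 1 (adjusted p = 0.0676).

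Retinoid receptors bind pairs of the hexamer AGGTCA, its relative GGGTCA, or the forms AGTTCA that many targets hold and GGTTCA beside it, repeated in the same orientation, and such repeats with 1, 2 or 5 bases between them were looked for on both strands from 250 bases before to 50 after the start of each gene (RefSeq, GRCm38.p6). Only 193 of 32851 promoters held one (0.588%). In the retinoid list 2 of 20 genes with a promoter sequence did, Rarb and Cyp26a1, and of the Hoxa and Hoxb genes 0 of 12. The sites are shown because their genes are the RA targets whose level was not called different, with the hexamers and the bases between them in capitals, on the minus strand, at chr14:16575510-16575532 for Rarb and at chr19:37697773-37697795 for Cyp26a1:
Rarb: aagGGTTCACCGAAAGTTCActc
Cyp26a1: attAGTTCACCCAAAGTTCAtct
In both, 5 bases separate the hexamers. A match of letters does not show binding, and enhancers that lie outside this window were not searched.

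The Hox genes were the group with the most lowered members. All Hox genes were low before RA, with a highest mean of 5.69 CPM at 0 h in DMSO. Of the 37 Hox genes in the tables, 26 were counted well enough to be tested, 15 of these were lower in Auxin on day 2 and 0 were higher. DESeq2 called 10 lower and 0 higher, at an unadjusted p below 0.05 with the same fold 16 were lower and 0 higher, and without Auxin replicate 1 edgeR's test called 9 lower. The log2 fold change was below 0 for 25 of the 26, also with DESeq2 size factors or without normalisation factors, and its median was −1.41 against 0.04 over all genes tested. Summed over the Hox genes, 749 and 786 CPM were counted in Auxin and 1664 and 1702 CPM in DMSO. The list of Hoxa and Hoxb genes alone had 10 of 18 tested members lower (55.6%), where 1.88% of all tested genes were lower. That count was 5 without Auxin replicate 1.

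In the Hoxa cluster on chromosome 6, Hoxa5, which specifies cervical and upper thoracic identity, had the largest change. It was at 80.6 and 85.0 CPM in Auxin and at 482 and 528 CPM in DMSO, so that the Auxin mean was 16.4% of the DMSO mean (log2 fold change −2.61, SE 0.13, adjusted p = 2.8e-13; chr6:52201754-52204587, minus strand). Hoxa10 fell from a mean of 14.2 to 2.51 CPM (−2.50), and without Auxin replicate 1 its adjusted p was 0.0566. Hoxa9 fell from 31.0 to 14.5 CPM (−1.09), and its call was lost without any of the 4 libraries (adjusted p from 0.0701 to 0.152) and under DESeq2 (0.195). The other 5 Hoxa genes tested were not called.

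In the Hoxb cluster on chromosome 11, 7 of 10 tested genes were lower, where 1.88% of all tested genes were. Hoxb2 and Hoxb4, expressed up to boundaries in the hindbrain, fell from means of 77.8 to 26.9 CPM (log2 fold change −1.53, SE 0.30, adjusted p = 0.000762) and of 82.4 to 33.5 CPM (−1.30, SE 0.20, adjusted p = 6.2e-05). Hoxb5 fell by 1.34 and Hoxb9 by 1.49 on the log2 scale. Hoxb7 (−1.63) and Hoxb8 (−1.87) were called, and each lost its call without Auxin replicate 1 (adjusted p = 0.0525 and 0.144) or DMSO replicate 2 (0.0656 and 0.155). Hoxb6 had 28.6 and 5.77 CPM in the DMSO libraries and 3.14 and 0.575 CPM in Auxin (−3.10), a spread that rests on DMSO replicate 1, without which its log2 fold change was −1.56 (adjusted p = 0.415). Its call was also lost without Auxin replicate 1 (0.0536) or 2 (0.165). Hoxb1, which patterns the hindbrain, stood apart with 271 and 273 CPM in Auxin and 213 and 209 CPM in DMSO, the one Hox gene above 0 (0.36, SE 0.11, adjusted p = 0.0286).

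The Hoxc genes, on chromosome 15, were not among the lists and were looked at after their values were seen. There 5 of 7 tested genes were lower, where 1.88% of all tested genes were. Hoxc9, a thoracic Hox gene, was at 13.6 and 14.4 CPM in Auxin and at 78.4 and 122 CPM in DMSO (log2 fold change −2.84, SE 0.26, adjusted p = 2.19e-08). Hoxc8, its neighbour, was at 4.19 and 5.75 CPM against 30.1 and 29.3 CPM (−2.57, SE 0.34, adjusted p = 1.41e-05). Hoxc4 (−2.05) and Hoxc5 (−2.04) fell by about the same amount. Hoxc6 (−1.93) lost its call without any 1 of the 4 libraries (adjusted p from 0.0632 to 0.211).

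**Figure D2:**
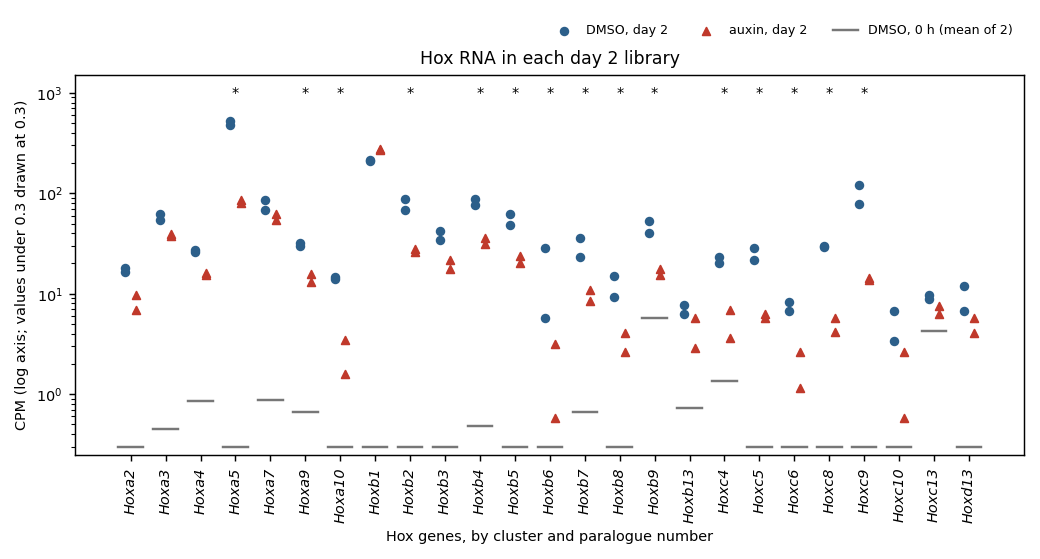
CPM (log axis) of tested Hox genes in each of the 2 Auxin and 2 DMSO libraries on day 2, in cluster order, with the DMSO mean at 0 h as a grey line (values under 0.3 drawn at 0.3) and an asterisk at the 15 genes called lower. In the called genes, such as Hoxa5 and Hoxc9, both Auxin points lie below both DMSO points, and Hoxb1 is the gene where they lie above, at 271 and 273 against 213 and 209 CPM.

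RA-responsive genes as a whole were then described with a list that shares no library with day 2, the genes changed in DMSO between 0 h and day 1. RA raised 1825 of 11415 genes (16.0%) and lowered 1532 (13.4%) by day 1. At 8 h, day 2 and day 4 it had raised 399, 1854 and 2274 genes (3.5%, 16.2% and 19.9%) and lowered 334, 1158 and 1203 (2.93%, 10.1% and 10.5%). Of the raised genes, 75 were higher in Auxin on day 2 (4.11%, where 2.93% of all tested genes were higher) and 89 were lower (4.88%, where 1.88% were). Their median log2 fold change was −0.056, and 53.9% were below 0 against 46.2% of all genes tested. The sign of that median depended on the list and the scaling, since it was 0.059 for the 399 genes raised by 8 h, 0.040 for the 2274 raised by day 4, and 0.017 without normalisation factors. Of the genes that RA lowered, 47 were higher in Auxin (3.07%) and 24 lower (1.57%), with a median of 0.18 and 31.2% below 0. Leaving out any 1 day 2 library gave 39 to 47 higher genes among those raised, and 26 to 34 among those lowered.

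The raised genes did not move together. Of the 26 tested Hox genes 24 belonged to this list, and 14 of these were lower in Auxin on day 2. Of all raised genes 4.88% were lower and 4.11% higher, against 1.88% and 2.93% of all genes tested. Of the retinoid pathway 11 genes belonged to the list of raised genes, Rarb, Cyp26a1, Stra8, Crabp2, Stra6 and Dhrs3 among them, and 0 were called in either direction, near those shares. Of the integrated stress response, described further on, 12 genes belonged to it, with 4 lower and 0 higher. Among naive pluripotency genes 15 of 24 were lowered by RA, and 4 of those were higher in Auxin, where 3.07% of all lowered genes were.

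**Figure D3:**
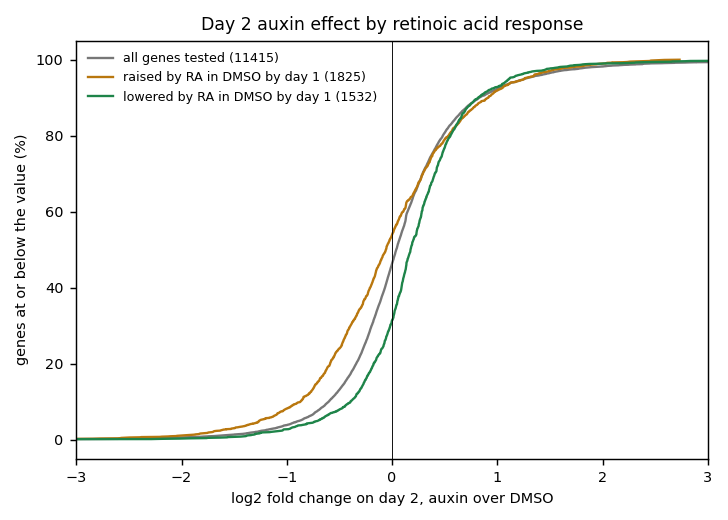
Share of genes at or below a value (y axis, %) over the log2 fold change between Auxin and DMSO on day 2 (x axis). The lines are all 11415 genes tested, the 1825 raised and the 1532 lowered by RA in DMSO by day 1. The raised genes spread on both sides of 0 with a median of −0.056 and 53.9% below 0, and the lowered genes have a median of 0.18 and 31.2% below 0.

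The largest rise on day 2 was in targets of the aryl hydrocarbon receptor (AhR), a ligand-activated transcription factor that switches on enzymes of foreign-compound metabolism. Of 9 tested genes of this list, 5 were higher (55.6%, where 2.93% of all tested genes were) and 0 lower. At an unadjusted p below 0.05 with the same fold 6 were higher and 0 lower. DESeq2 called only Cyp1a1 of them, since it gave the other 4 no adjusted p at their low counts. Cyp1a1, a cytochrome P450 and the classic AhR target (chr9:57687928-57703824, plus strand), had 128 and 129 reads in Auxin, or 67.0 and 74.1 CPM, and 0 reads in both DMSO libraries. Against the limit that 3 reads over the DMSO group allow, it was at least 94.0-fold higher (adjusted p = 3.53e-07).

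The other called members had few reads in DMSO. Cyp1b1, another cytochrome P450, had 23 and 18 reads in Auxin and 1 in each DMSO library, a ratio of 22.5 (95% interval 5.84 to 192). Cyp1a2, the neighbour of Cyp1a1, had 31 and 29 reads against 3 and 0, a ratio of 21.9 (7.16 to 109). Ahrr, the repressor of AhR and itself a target, had 11 and 12 reads against 1 and 0, a ratio of 25.2 (4.10 to 1040). Aldh3a1, an aldehyde dehydrogenase, had 9 and 13 reads against 0 and 1, a ratio of 24.1 (3.90 to 996), and lost its call without DMSO replicate 1 (adjusted p = 0.0588). These exact intervals of the ratio of reads cover counting error only. The receptor genes Ahr and Arnt and the targets Tiparp and Nqo1 were not called (log2 fold change 1.62, 0.17, 0.34 and 0.40). Of the 8 members with a promoter sequence, Ahrr held the AhR core element TNGCGTG, as did 5.07% of all promoters. This motif was chosen after the data were seen, and the site is shown, with the element in capitals on the minus strand at chr13:74292346-74292368, since its gene was called:
Ahrr: ggggcggcTCGCGTGctggggtg

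The largest fall among well counted genes was in Atf5, a transcription factor of the integrated stress response (ISR), the programme that ATF4 runs when amino acids are short or protein folding fails. Atf5 (chr7:44812256-44816658, minus strand) was at 26.7 and 23.6 CPM in Auxin and at 213 and 244 CPM in DMSO, a mean 9.09-fold lower (log2 fold change −3.18, SE 0.18, adjusted p = 2.31e-12). Of 19 ISR genes tested 5 were lower (26.3%, where 1.88% of all tested genes were) and 0 higher, 8 more were lower at an adjusted p below 0.05 with a smaller change, and 18 were below 0 (17 without normalisation factors). At an unadjusted p below 0.05 with the same fold 5 were lower and 0 higher, and 3 were called lower under DESeq2, without normalisation factors or without Auxin replicate 2. The median of the list was −0.73. Nupr1, a stress-induced chromatin protein, was at 41.4 and 40.2 CPM in Auxin and at 136 and 139 CPM in DMSO (−1.75, SE 0.20, adjusted p = 6.07e-07). Slc3a2, the heavy chain of amino acid transporters, was at 429 and 434 CPM against 908 and 997 CPM (−1.14, SE 0.11, adjusted p = 5.13e-08).

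Atf3 and Stc2 were also called, with weaker support. Stc2, a secreted glycoprotein, fell from a mean of 36.3 to 17.2 CPM and lost its call without Auxin replicate 1 (adjusted p = 0.0659), Auxin replicate 2 (0.0832) or DMSO replicate 1 (0.0623). Atf3, a stress-induced repressor, fell from 40.6 to 19.3 CPM and lost it without Auxin replicate 2 (0.188) or DMSO replicate 2 (0.101), and both lost it without normalisation factors and under DESeq2. Chac1, which degrades glutathione, was at 179 and 175 CPM against 341 and 352 CPM and missed the threshold of size (−0.97, adjusted p = 1.42e-06), as did Mthfd2, an enzyme of mitochondrial folate metabolism (−0.73), and Trib3, a feedback inhibitor of ATF4 (−0.74). Atf4 RNA itself was at 1523 and 1318 CPM against 1479.6 and 1631 CPM (−0.13, adjusted p = 0.531).

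Some genes of the pluripotent state were higher. Of 24 naive pluripotency genes 4 were higher (16.7%, where 2.93% of all tested genes were) and 1 lower (4.17%, where 1.88% were). The median of the list was 0.016, 12 of the 24 were below 0, and the summed level was 5486 and 5316 CPM in Auxin and 6425 and 6705 CPM in DMSO. Klf2, a Krüppel-like factor of naive cells, was at 254 and 221 CPM in Auxin and at 106 and 114 CPM in DMSO (log2 fold change 1.11, SE 0.12, adjusted p = 2.26e-07). Nr5a2, a nuclear receptor that binds the Pou5f1 promoter, was at 94.3 and 103 CPM against 26.5 and 34.6 CPM (1.69, SE 0.17, adjusted p = 1.4e-07). Tcl1, an AKT coactivator, was at 85.4 and 87.9 CPM against 37.4 and 42.8 CPM (1.11, adjusted p = 4.34e-06).

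The core factors did not follow them. Nr0b1, a corepressor of the pluripotency network, was the fourth called gene, at 82.2 and 71.8 CPM in Auxin and 25.4 and 13.0 CPM in DMSO (log2 fold change 2.01, adjusted p = 0.00328), and lost its call without DMSO replicate 2 (1.60, adjusted p = 0.0768) and under DESeq2 (0.100). Sox2 was at 332 and 334 CPM against 337 and 360 CPM, Nanog at 335 and 372 CPM against 332 and 299 CPM, and Pou5f1 at 805 and 679 CPM against 786 and 855 CPM, all with a log2 fold change between −0.14 and 0.16 (33.3% of Nanog and 99.9% of Pou5f1 reads were multimapped). Dppa5a, an RNA-binding protein of ES cells, was at 1187 and 1224.5 CPM against 2479 and 2474 CPM (−1.04), with all of its reads multimapped. Without normalisation factors its change was −0.96, short of the threshold.

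Of 17 genes of the formative state and epiblast, which follows naive pluripotency, 2 were higher (11.8%, where 2.93% of all tested genes were) and 3 lower (17.6%, where 1.88% were). DESeq2 called 0 higher and 2 lower. Lefty2, a Nodal inhibitor, was at 94.8 and 82.7 CPM in Auxin and at 335 and 376 CPM in DMSO (4.01-fold lower, adjusted p = 1.02e-09, 21.7% of reads multimapped). Pou3f1 (Oct6) fell from a mean of 20.6 to 5.94 CPM and Sox3, an early neural and epiblast factor, from 24.7 to 11.3 CPM. Pou3f1 lost its call without Auxin replicate 2 (log2 fold change −1.38) or DMSO replicate 1 (−1.43). Sox3 lost it without Auxin replicate 1 (−1.03) or DMSO replicate 2 (−1.05) and under DESeq2 (adjusted p = 0.102). Grhl2, an epithelial factor, rose from 1.72 to 8.52 CPM and lost its call without any 1 of the 4 libraries (adjusted p from 0.0572 to 0.154). Lef1, a WNT effector, had 22 reads in Auxin and 3 in DMSO, a ratio of 8.05 (95% interval 2.42 to 42.0), and lost its call without Auxin replicate 2 (adjusted p = 0.05), DMSO replicate 1 (0.0744) or DMSO replicate 2 (0.0506).

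Cdx1 and Cdx2, of a family that sits upstream of Hox genes in the embryo, were higher, 2 of the 11 genes tested of the Cdx and cofactor list (18.2%, where 2.93% of all tested genes were). Cdx1 was at 140 and 133 CPM in Auxin and at 47.8 and 51.5 CPM in DMSO (log2 fold change 1.46, SE 0.17, adjusted p = 1.11e-06). Cdx2 was at 17.8 and 14.9 CPM against 3.64 and 4.33 CPM (2.02, SE 0.44, adjusted p = 0.00258). The other 9 genes of that list tested, Hox cofactors of the Meis, Pbx and Pknox families, were not called.

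Some markers of extraembryonic endoderm, which RA induces in a part of the cells, were lower. Of 22 tested, 6 were lower (27.3%, where 1.88% of all tested genes were) and 0 higher, and 5 had a log2 fold change above 0. DESeq2 called 4 lower and 0 higher, 7 were lower and 1 higher at an unadjusted p below 0.05 with the same fold, and without Auxin replicate 1 edgeR's test called 3 lower. The median log2 fold change was −0.50, and the summed level of the list was 1364 and 1394 CPM in Auxin and 1872 and 1942 CPM in DMSO. Dab2, an endocytic adaptor of this lineage, was at 68.1 and 70.7 CPM in Auxin and at 203 and 211 CPM in DMSO (−1.57, SE 0.13, adjusted p = 2.9e-09). Sox7, one of its transcription factors, was at 4.19 and 4.02 CPM against 15.1 and 14.9 CPM (−1.85, SE 0.43, adjusted p = 0.0039). Cubn, an endocytic receptor, fell from a mean of 26.6 to 5.99 CPM (−2.14), with 51.9% of its reads multimapped. Amn, its partner, fell from 12.7 to 3.61 CPM. It lost its call without Auxin replicate 1 (log2 fold change −1.45) or DMSO replicate 2 (−1.59) and under DESeq2 (adjusted p = 0.0575).

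Other genes of this lineage were not lower, or less surely so. Gata4 fell from 14.1 to 5.52 CPM. It lost its call without Auxin replicate 1 (log2 fold change −1.14), Auxin replicate 2 (−1.56) or DMSO replicate 1 (−1.12) and under DESeq2 (adjusted p = 0.0892). Ttr, the transport protein of visceral endoderm, had 4 reads in Auxin and 28 in DMSO (ratio 0.157, 95% interval 0.0399 to 0.448) and lost its call without Auxin replicate 1 (0.143) or DMSO replicate 2 (0.194). Gata6, a factor that starts the lineage, was at 99.0 and 114 CPM in Auxin and at 99.7 and 77.9 CPM in DMSO, so the groups overlapped (0.26, SE 0.18). The matrix genes Sparc and Col4a1 were at log2 fold changes of −0.50 and −0.02 and were not called.

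Of 11 mesoderm genes 3 were lower (27.3%, where 1.88% of all tested genes were) and 1 higher (9.09%, where 2.93% were). DESeq2 called 1 lower and 0 higher. Eomes, a T-box factor, fell from a mean of 19.4 to 6.07 CPM, and lost its call without Auxin replicate 1 (adjusted p = 0.0895) or DMSO replicate 2 (0.0532). Hand2 had 1 read in Auxin and 16 in DMSO (ratio 0.0686, 95% interval 0.00164 to 0.441) and Foxc2 had 3 and 21 reads (0.157, 0.0299 to 0.525). Hand2 lost its call without Auxin replicate 1 (0.163) or DMSO replicate 1 (0.108), and Foxc2 without any 1 of the 4 libraries (0.0599 to 0.216). Pdgfrb, a receptor of mesenchymal cells, rose by 1.63 on the log2 scale. It lost its call without Auxin replicate 1 (1.61) or DMSO replicate 1 (1.15) and under DESeq2 (adjusted p = 0.0677). Of 14 tested neural genes 1 was higher, Elavl4 (5.48 to 12.3 CPM), and 1 lower, Ina (61.3 to 29.6 CPM), 7.14% in each direction. The call of Elavl4 was lost without any 1 library (log2 fold change 1.09 to 1.24). It was also lost in edgeR without a filter on low counts (adjusted p = 0.0569) and under DESeq2 (0.209). The change of Ina was −0.93 without DMSO replicate 2 and −0.97 without normalisation factors. Of 15 trophectoderm and simple epithelium genes 0 were called by edgeR, by DESeq2 or at an unadjusted p below 0.05 with the same fold.

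Fibroblast markers, which would show feeder or differentiated stromal cells, were also counted. Of 12 such genes 5 had at most 3 reads in each of the 4 libraries, and 3 of the 8 tested were higher (37.5%, where 2.93% of all tested genes were), namely Pdgfrb, Col1a1 and Col5a1. DESeq2 called 0 of them, and without Auxin replicate 1 or DMSO replicate 1 edgeR's test called 1 and 0. Their summed level was 67.6 and 63.2 CPM in Auxin and 36.9 and 28.4 CPM in DMSO. Col1a1, the main collagen of fibroblasts, had 27 reads in Auxin and 2 in DMSO (ratio 14.8, 95% interval 3.72 to 129), and Col3a1 was at 0 and 0 against 1 and 0 reads. Col1a1 lost its call without DMSO replicate 1 (adjusted p = 0.0560), and Col5a1 without Auxin replicate 1 (0.556), DMSO replicate 1 (0.0652) or DMSO replicate 2 (0.204). The part of this signal in the other changes was not tested.

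Some imprinted genes that govern fetal growth were lower. Of 13 tested, 4 were lower (30.8%, where 1.88% of all tested genes were) and 0 higher, also under DESeq2, and 4 were lower and 1 higher at an unadjusted p below 0.05 with the same fold. Cdkn1c, an inhibitor of cyclin-dependent kinases, was at 577 and 570 CPM in Auxin and at 1163 and 1271 CPM in DMSO (log2 fold change −1.09, SE 0.10, adjusted p = 4.63e-08). Dlk1, a Notch-related ligand, was at 80.6 and 67.8 CPM against 302 and 258 CPM (−1.91, SE 0.13, adjusted p = 1.2e-10). Peg10, a gene derived from a retrotransposon, was at 197 and 193 CPM against 454 and 472 CPM (−1.25, SE 0.10, adjusted p = 3.8e-09).

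Phlda2, which lies in the same imprinted domain of chromosome 7 as Cdkn1c, was at 61.3 and 47.7 CPM in Auxin and at 139 and 121 CPM in DMSO (log2 fold change −1.25, SE 0.15, adjusted p = 1.87e-06).

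**Figure D4:**
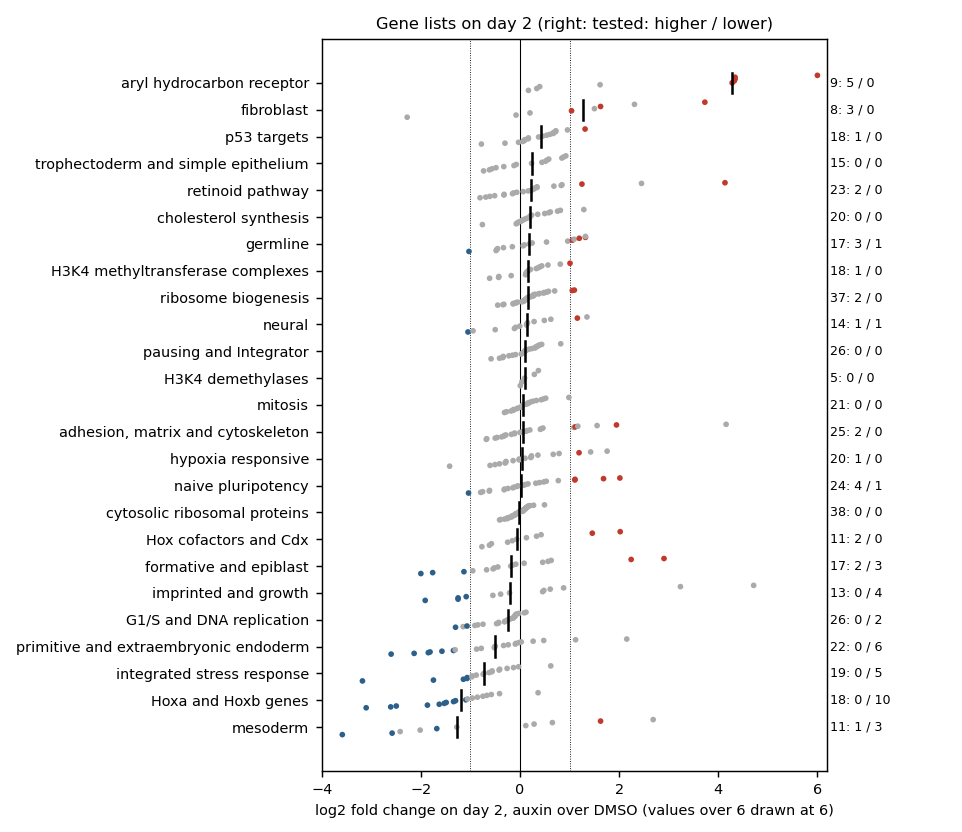
Log2 fold change on day 2, Auxin minus DMSO, of every tested member of the 25 gene lists (points, values over 6 drawn at 6), with the median of the fitted values of each list as a black line and the numbers tested, higher and lower at the right. The lists with the most calls in 1 direction are the Hoxa and Hoxb genes (0 higher, 10 of 18 lower) and endoderm (6 of 22 lower). The AhR list (5 of 9 higher) and the integrated stress response (5 of 19 lower) follow. The small mesoderm and fibroblast lists have medians of −1.28 and 1.27. The mesoderm median was −0.85 without DMSO replicate 2, and the fibroblast median was 0.78 without Auxin replicate 1.

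Several lists of the basic machinery of growth and transcription had no called gene. None of 26 genes of promoter-proximal pausing and the Integrator complex, 38 cytosolic ribosomal proteins, 21 mitosis genes and 20 cholesterol synthesis genes was called by edgeR or DESeq2. Of all tested genes edgeR called 4.81% in either direction. At an unadjusted p below 0.05 with the same fold 1 gene of these lists was called, a cholesterol synthesis gene that was higher. Of 26 genes of G1/S and DNA replication 2 were lower (7.69%, where 1.88% of all tested genes were), 24 were below 0, and the median log2 fold change was −0.24. At an adjusted p below 0.05 with a smaller change 4 more were lower and 0 higher. Ccnd2, a D-type cyclin, was at 79.6 and 73.6 CPM in Auxin and at 173 and 204 CPM in DMSO (−1.30, SE 0.13, adjusted p = 5.92e-08). Cdc6, which loads the replicative helicase, fell from a mean of 123 to 58.5 CPM with 22.0% of its reads multimapped. Its change was −0.95 without DMSO replicate 1 and −0.99 without normalisation factors, short of the threshold. Of 37 ribosome biogenesis genes 2 were higher (5.41%, where 2.93% of all tested genes were), Utp20 (21.7 to 46.7 CPM) and Polr1b (16.4 to 34.3 CPM). At an adjusted p below 0.05 with a smaller change 4 more of these genes were higher and 3 lower. Utp20 lost its call without Auxin replicate 2 (adjusted p = 0.0633), and Polr1b came to 0.98 without Auxin replicate 2 and to 0.94 without DMSO replicate 1.

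Among the 12 largest rises in genes with at least 50 reads were several outside the lists. Muc3, an intestinal mucin, was at 48.7 and 59.2 CPM in Auxin and at 3.12 and 4.81 CPM in DMSO (log2 fold change 3.73, SE 0.38, adjusted p = 1.33e-07). Ephx2, the soluble epoxide hydrolase, was at 35.1 and 34.5 CPM against 4.67 and 3.37 CPM (3.10, SE 0.34, adjusted p = 3.49e-07). Pkp2, a desmosome protein, was at 108 and 85.6 CPM against 23.4 and 28.9 CPM (1.89, SE 0.20, adjusted p = 1.7e-07).

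All genes of this set were chosen from those whose groups did not overlap, which held for 57.2% of all genes tested, so their separation adds no support. Sema6a, a guidance molecule, rose by 2.14 on the log2 scale, Cd34, a sialomucin, by 1.86, Nid1, a basement membrane protein, by 1.82, Cox6b2, a cytochrome c oxidase subunit of testis, by 1.76, and Kalrn, a guanine nucleotide exchange factor, by 1.70. Ccn2, a target of YAP signalling, was at 153 and 145 CPM in Auxin and at 57.6 and 20.7 CPM in DMSO (1.95), and lost its call without Auxin replicate 1 (adjusted p = 0.0910), Auxin replicate 2 (0.0705) or DMSO replicate 2 (0.221) and under DESeq2 (0.189). Cyp1a1, Nr0b1 and Nr5a2, given above, complete this set.

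The largest falls outside the lists and the Hox clusters, again in genes with at least 50 reads, were in Srgn, Pclaf, Apoe, Fam84b and 2200002D01Rik. Srgn, a proteoglycan of secretory granules, was at 9.43 and 8.04 CPM in Auxin and at 61.8 and 49.1 CPM in DMSO (log2 fold change −2.65, SE 0.28, adjusted p = 2.54e-07). Pclaf, a PCNA-binding protein, was at 92.2 and 93.1 CPM against 455 and 511 CPM (−2.38, SE 0.11, adjusted p = 5.46e-14), with 59.5% of its reads multimapped. Apoe, a lipid carrier, was at 38.2 and 26.4 CPM against 139 and 178 CPM (−2.29, SE 0.20, adjusted p = 5.69e-09).

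Fam84b fell by 2.19 and 2200002D01Rik by 2.08 on the log2 scale. The remaining genes of the 12 largest falls were Atf5, Hoxc9, Hoxa5, Hoxc8, Cubn, Hoxc5 and Lefty2. All of the 12 except Lefty2, Pclaf and Cubn had under 20% multimapped reads.

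The effect of auxin was set against that at the other time points with the difference of both effects, tested in the same fit. At 8 h 2 genes were higher and 16 lower (0.0175% and 0.14%), on day 1 116 and 157 (1.02% and 1.38%), and on day 4 532 and 296 (4.66% and 2.59%). The effect on day 2 was higher than on day 1 for 22 genes and lower for 63 (0.193% and 0.552%), and against day 4 it was higher for 45 and lower for 41 (0.394% and 0.359%). Against 8 h it was higher for 133 and lower for 117 genes (1.17% and 1.02%). Leaving out 1 of the 8 libraries behind each of these comparisons gave 8 to 19 and 37 to 59 genes against day 1, 25 to 42 and 21 to 31 against day 4, and 70 to 92 and 72 to 93 against 8 h. The balance against day 1 depended on scaling and fit, with 35 higher and 35 lower without normalisation factors, 82 and 80 without the day 6 groups (added after seeing the data) and 65 and 81 with only the groups compared. Against day 4 it was 33 and 60, 78 and 86, and 64 and 91 in the same order.

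Hoxa5 was lowered more on day 2 than at 8 h (difference −1.40, SE 0.22, adjusted p = 0.000436). Its mean level in DMSO was 267 CPM on day 1, 505 on day 2 and 254 on day 4, and in Auxin 69.0, 82.8 and 65.1 CPM. Hoxb1 ran the other way, with an effect on day 2 that was lower than on day 4 (difference −1.15, SE 0.16, adjusted p = 8.56e-05). It was at 29.1, 211 and 115 CPM on days 1, 2 and 4 in DMSO and at 68.0, 272 and 329 CPM in Auxin, and was called higher in Auxin on day 1 and day 4 but not on day 2.

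Atf5 had a larger fall on day 2 than on day 1 or at 8 h, by 1.76 and 2.75 on the log2 scale (adjusted p = 0.000122 and 5.87e-07). It was at 265 CPM in DMSO and 99.3 CPM in Auxin on day 1, and at 56.3 and 15.7 CPM on day 4. Chac1 of the same response was lowered less on day 2 than on day 4 (difference 2.24, SE 0.32, adjusted p = 0.000115), when it was at 34.2 CPM in DMSO and 3.63 CPM in Auxin. Cdkn1c was lower in Auxin on day 1 (501 against 1571 CPM) and day 2, and was at 349 against 214 CPM on day 4, short of the threshold of size. The difference between days 2 and 4 was −1.79 (SE 0.15, adjusted p = 7.56e-08). Peg10 was at 34.9 CPM in DMSO and 41.4 CPM in Auxin on day 1 and was lower in Auxin on day 2 (difference −1.49, SE 0.20, adjusted p = 9.36e-05).

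The endoderm genes differed in their time course. Dab2 was at 13.4 CPM in both groups on day 1, at 207 CPM in DMSO and 69.4 CPM in Auxin on day 2, and at 935 and 223 CPM on day 4. The difference between days 1 and 2 was −1.56 (SE 0.31, adjusted p = 0.00782), and it was not called without Auxin day 1 replicate 2 (adjusted p = 0.278) or DMSO day 1 replicate 1 (0.0593). Sparc and Col4a1, which on day 2 were not called, were lower in Auxin on day 4, and the day 2 effect was above that of day 4 by 1.63 (SE 0.15) and 1.82 (SE 0.17), each with an adjusted p of 1.58e-07.

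Among the genes that rose, Cdx1 was raised more on day 2 than at 8 h (difference 1.55, SE 0.24, adjusted p = 0.000278). It was at 84.8 CPM in DMSO and 115 CPM in Auxin on day 1, and at 4.01 and 15.6 CPM on day 4. Ephx2 and Pkp2 were likewise raised more on day 2 than at 8 h, by 2.96 (SE 0.56, adjusted p = 0.00217) and 2.73 (SE 0.38, adjusted p = 7.91e-05). Cyp1a1 was at 0 CPM in DMSO and 29.6 CPM in Auxin on day 1, and at 0.445 and 59.6 CPM on day 4. At 8 h it was at 0.494 and 0 CPM in the Auxin libraries and at 0 in DMSO, too few reads to compare its effect there with that of day 2, and the effects on days 1 and 4 were not called different from that of day 2.

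**Figure D5:**
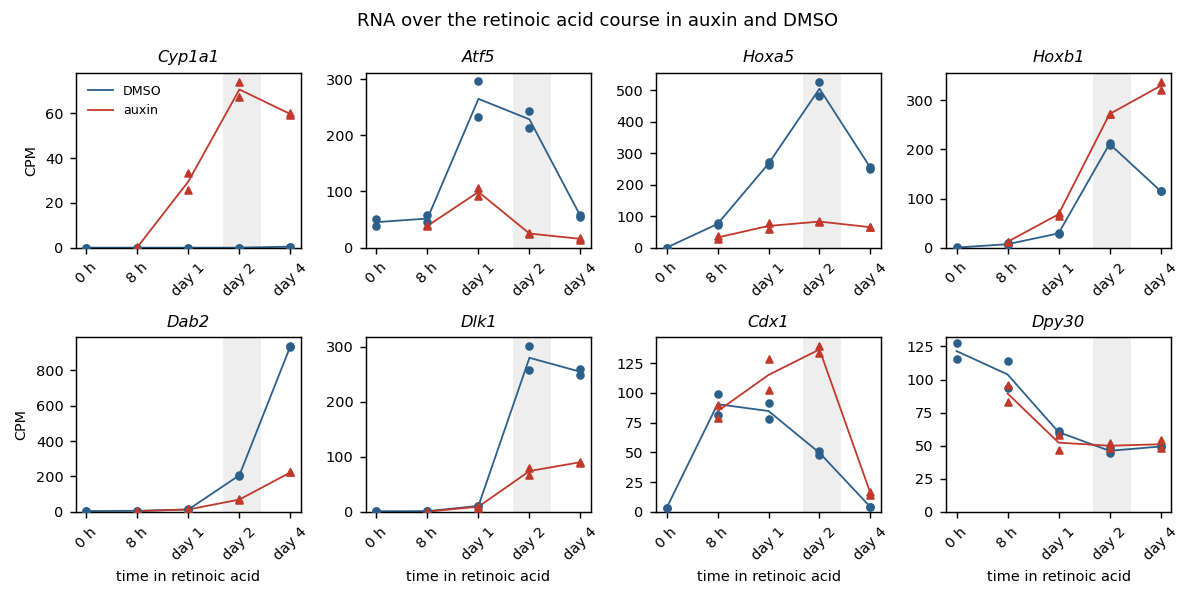
CPM of 8 genes over the RA course (x axis, time of RA, evenly spaced and not to scale) in each Auxin and DMSO library, with lines through the group means and day 2 shaded. Hoxa5, Atf5, Dab2 and Dlk1 lie lower in Auxin on day 2, Cyp1a1 and Cdx1 higher, and Hoxb1 and Dpy30 are not called.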

How the data were processed

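The authors sequenced 3′ ends (Quant-seq, without molecular identifiers, with RNA treated with iodoacetamide per the labels) and deposited raw counts per 3′ UTR interval on GRCm38. The study's methods give HISAT 2.2.1 for mapping Quant-seq reads and featureCounts for counting, whereas the file headers name SlamDunk, which the methods give for SLAM-seq. Counts of 46420 intervals were summed over 20177 genes, with coordinates from GENCODE vM21. CPM deposited by the authors were not used, and CPM here were computed from the deposited counts with TMM factors.

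The main test was edgeR 4.0.16 (quasi-likelihood, R 4.3.3) in a single fit of all RA groups, in which the identical libraries of DMSO day 6 counted as 1, with a filter that kept genes reaching 10 reads on average in any group. SE were computed from the test, as the size of the log2 fold change divided by the square root of its F statistic. DESeq2 1.42.0, other normalisations, filters, fits of fewer groups, a replicate block and leaving out libraries were alternatives. Where a group was left with 1 library, it was assumed to vary like the other groups. In 1 simulated data set, changes of 1 and 2 on the log2 scale were called for 42% and 94% of 100 genes each on day 2. For the difference from day 1 these shares were 30% and 82%. False calls numbered 10 and 7 among 11282 genes, so many true changes near the threshold of size go uncalled. Tables were made with Python 3.11.15 and pandas 2.3.3.

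Named genes were Dpy30, members of 25 lists, and the 12 largest rises and falls with a mean of at least 50 reads, non-overlapping groups and, for times, the 5 largest each way. Genes with over 20% multimapped reads carry that share. The comparison and lists were chosen with earlier results of these data known. Members whose symbols were not matched were not used here, nor were SLAM-seq libraries, and some genes are not reported here.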

Additional observations from a re-analysis of the deposited data

Results flagged for a closer look

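The effect of auxin on day 2 differed from that at other times by the test of the difference itself, with values on the log2 scale. It was higher on day 2 than on day 1 for 22 genes and lower for 63, higher than on day 4 for 45 and lower for 41, and higher than at 8 h for 133 and lower for 117. Without normalisation factors 35 were higher and 35 lower than on day 1, and without the day 6 groups 82 and 80, and 78 and 86 against day 4.

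The genes named first in each direction are those with the widest differences among genes that averaged 50 reads or more in a group compared, and members of the lists follow without that limit. Against day 1, the widest differences downward were Lama1 (−2.33), a laminin of basement membranes, Podxl (−2.15), Rad18 (−1.82), Nt5e (−1.80) and Atf5 (−1.76). Upward they were Ephx2 (2.74), Aurkc (1.99, 47.7% of reads multimapped), Olfm1 (1.96), Slc46a1 (1.82) and Fam83d (1.72). Among members of the lists with at least 4 called genes on day 2 and of the Hox cofactor and Cdx list, Klf4 (−1.02), Lin28a (−1.48), Dnmt3l (−1.22), Lefty2 (−1.70), Meis2 (−1.15), Dab2 (−1.56), Nupr1 (−1.08), Dlk1 (−1.69) and Peg10 (−1.49) were lower and Cdx1 (1.02) higher. Of these 20 genes only Atf5, Aurkc, Lefty2, Meis2 and Peg10 held under every alternative.

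Against day 4, the 5 widest differences downward above that read limit were in genes with many multimapped reads, Dcdc2c (−3.42, 100% multimapped), Tcstv1 (−3.28, 99.6%), Gm5039 (−2.91, 53.7%), Gm21761 (−2.88, 32.7%) and Prex2 (−2.87, 63.2%). Upward they were Fabp3 (3.16, 28.2% multimapped), Pth1r (2.89), Htra1 (2.66), Timp3 (2.60) and Ndrg1 (2.42). Among members of these lists Hoxb1 (−1.15), Hoxb4 (−1.12), Cdkn1c (−1.79), Phlda2 (−1.42) and Atf5 (−1.33) were lower on day 2, and Tcl1 (1.41), Fgf4 (1.20), Sparc (1.63), Col4a1 (1.82), Col4a2 (1.39), Chac1 (2.24) and Atf4 (1.04) higher. Dppa3 was fitted at −7.67, a value that depends on the fit and is no bound, since it was at 0 reads in both DMSO libraries on day 4, at 8.51 and 6.63 CPM in Auxin on day 4, and had 1 to 3 reads in each library on day 2. The difference of Hoxb4 was lost in 10 of 17 alternatives, of Dppa3 in 10 of 15, of Tcstv1 in 7 of 15, of Fgf4 in 7 of 17, of Atf4 and Atf5 in 6 of 17 each and of Pth1r in 2 of 17, and the others held in all.

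Against 8 h, the widest differences downward were Hoxa9 (−3.04), Atf5 (−2.75), Gap43 (−2.65), Apoe (−2.13) and Lck (−2.07), and upward, above the same read limit, Dpysl3 (4.91), Muc3 (3.81), Ephx2 (2.96), Pkp2 (2.73) and Lrrn4 (2.65). Hoxa9, Gap43, Lrrn4, Muc3 and Dpysl3 were under 5 CPM in both groups at 8 h, so the size of their differences is poorly set. Among members of these lists Hoxa5 (−1.40), Hoxb9 (−1.61), Eomes (−2.25), Ddit3 (−1.14), Slc3a2 (−1.15) and Nupr1 (−1.37) were lower on day 2. Nr5a2 (1.12), Fgf4 (1.12), Tdgf1 (1.11), Gdf3 (1.55), Dnmt3a (1.09), Cdx1 (1.55) and Dazl (1.62) were higher. Of the genes named against 8 h, Atf5, Apoe, Pkp2, Ephx2, Hoxa5, Cdx1, Dnmt3a and Dazl held in every alternative that gave a value, and each of the others was lost in at least 1.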

How the results depend on the processing

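The 83 genes named as called on day 2 and Dpy30, not called, were followed through the alternatives, and other genes named as not called were not. Of these 84, 47 stayed on their side of the threshold in every alternative that gave a value, 66 did so apart from leaving out a library, and 0 changed direction. DESeq2 gave 15 of them no adjusted p and ended 13 calls, and library sizes without TMM ended 6. Of the 66 differences between times given above, 29 held in every alternative. The number of higher genes on day 2 (334) was 160 with a filter at 50 reads, 117 in DESeq2 and 175 to 233 on leaving out 1 library, and that of lower genes (215) was 173 to 205. Without TMM 393 were higher and 181 lower. For higher effects on day 2 than on day 1 (22), the count was 35 without TMM, 67 without a filter, 9 in DESeq2, 82 without the day 6 groups (added after seeing the data), 65 with only the groups compared and 8 to 19 on leaving out 1 library. For lower effects (63) it was 35 without TMM and 37 to 59. Against day 4, higher effects (45) were 72 without a filter, 25 in DESeq2, 78 without day 6 and 25 to 42, and lower effects (41) were 70, 24, 86 and 21 to 31, and 91 with only the groups compared. Against 8 h, higher effects (133) were 73 in DESeq2, 203 without day 6 and 70 to 92, and lower effects (117) were 65 in DESeq2 and 72 to 93. For genes raised by RA, the median (−0.056) was 0.017 without TMM, −0.13 with 50 reads, −0.089 in DESeq2, −0.10 without multimapped reads, 0.059 and 0.040 for the lists of 8 h and day 4, and −0.084 to −0.034 on leaving out 1 library. Their higher genes (75) were 39 with 50 reads, 24 in DESeq2, 26 and 115 for the lists of 8 h and day 4, and 39 to 47, and their lower genes (89) were 16 for the list of 8 h. For genes lowered by RA, the median (0.18) was 0.26 without TMM and 0.13 and 0.087 for the lists of 8 h and day 4, the higher genes (47) were 20 in DESeq2, 21 for the list of 8 h and 26 to 34, and the lower genes (24) were 15 and 39 for the lists of 8 h and day 4. The cause of these shifts was not tested. DESeq2 called 6 Hoxa and Hoxb genes lower, against 10 in edgeR. Same-numbered libraries deviated with a correlation of −0.05 between the day 2 groups, and over 0.1 in 2 of 45 pairs of groups, so they share only a number. With the replicate number as a block, 332 genes were higher and 210 lower on day 2, and no call of the 84 genes changed. This block ended the differences of Hoxb4 and Dppa3 against day 4 (adjusted p = 0.0524 and 0.0564) and of Hoxb9 against 8 h (0.051). At 2 libraries a group, genes of few reads limit what can be called.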

Other observations

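Some germline genes were higher on day 2. Of 17 tested 3 were higher (17.6%, where 2.93% of all tested genes were) and 1 lower (5.88%, where 1.88% were). Dazl, an RNA-binding protein of germ cells, was at 91.6 and 105 CPM in Auxin and at 46.7 and 47.6 CPM in DMSO (log2 fold change 1.06, SE 0.18, adjusted p = 0.00023), and came to 0.96 without Auxin replicate 2. Slc25a31, an ADP/ATP carrier of testis, was at 30.4 and 35.1 CPM against 13.0 and 15.4 CPM (1.20, SE 0.27, adjusted p = 0.00325) and was called in every alternative. Tuba3b rose from 5.93 to 15.0 CPM and lost its call without Auxin replicate 1 (adjusted p = 0.205) or DMSO replicate 1 (0.194). Rhox5, an X-linked homeobox gene, fell from 168 to 82.6 CPM (−1.03), and came to −0.98 without Auxin replicate 1 and to −0.94 without DMSO replicate 2.

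Targets of p53, the DNA damage-responsive factor, had 1 of 18 tested genes higher (5.56%, where 2.93% of all tested genes were) and 0 lower, with 5 more higher at an adjusted p below 0.05 with a smaller change. The same counts, 1 higher and 0 lower, were given by DESeq2 and at an unadjusted p below 0.05 with a fold above 1 on the log2 scale. Phlda3, an inhibitor of AKT, was at 50.3 and 56.9 CPM in Auxin and at 23.4 and 19.7 CPM in DMSO (log2 fold change 1.31, SE 0.24, adjusted p = 0.000366). The median of this list was 0.42 against 0.04 over all genes tested. Of 20 hypoxia-responsive genes only Egln3, an oxygen sensor, was called (5% higher, near the 2.93% of all tested genes). It was at 18.9 and 21.3 CPM in Auxin against 7.79 and 9.62 CPM in DMSO (1.19). Egln3 lost its call without any 1 of the 4 libraries (1.05 to 1.36) and under DESeq2 (adjusted p = 0.0860). Of 25 adhesion, matrix and cytoskeleton genes S100a6, a calcium-binding protein, was higher, as 1 of 2 called (8%), with 45.6 and 43.1 CPM against 16.6 and 24.0 CPM (1.12, adjusted p = 0.00128) beside Ccn2, and came to 0.88 without DMSO replicate 1.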
